A study of Mus musculus with 20 samples.

Results

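The Egr transcription factor family was followed as 6 genes, chosen by name: the zinc finger factors Egr1, Egr2, Egr3 and Egr4 and their corepressors Nab1 and Nab2. All 6 were among the 19519 genes tested, through 8 of the 41174 probes on the array. The cultures were dissociated mouse hippocampal neurons on day 21 in culture, kept for 24 h with 100 µM AP5, with 100 nM NVP-AAM077 (NVP), with 1 µM of a compound that the labels call Ro25-4891 (Ro25), or with vehicle (control). AP5 is a competitive antagonist of the NMDA type of glutamate receptor, and NVP is an antagonist with some preference for receptors that hold the Grin2a subunit. The subunit preference of Ro25 is not stated here, because the code in the labels could not be matched to a known name. The 4 groups held 5 arrays each, and no genotype, strain or animal age is given in the labels. On every array the RNA of a culture was labelled with Cy5 and a universal mouse reference RNA with Cy3, so each level below is a log2 ratio of culture over reference after background correction and normalization. A negative level means less signal than in the reference, and levels of different genes, which come from different probes, were not set against each other.

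Egr factors are immediate early genes: synaptic activity and calcium entry, through kinase cascades, serum response factor with its Elk partners and CREB, switch on their transcription without new protein synthesis. The encoded proteins bind GC-rich sites through 3 zinc fingers, and Egr1 and Egr3 in particular are used as marks of recent activity in hippocampal neurons and are needed for lasting forms of plasticity and memory. Nab1 and Nab2 dock on Egr1, Egr2 and Egr3, recruit the NuRD complex and dampen their output, and Nab2 is itself known as an Egr target, which makes a feedback loop.

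RefSeq's promoter table (GRCm38.p6) held 4 of the 6 genes, Egr2, Egr4, Nab1 and Nab2. The 250 bases before the start site are printed below for these 4 only, because Egr1 and Egr3 had no entry. Capitals mark matches on either strand to the CArG box that serum response factor binds, to the CREB core TGACG, and to the Egr site GCGNGGGCG. No overlapping matches of different motifs occurred in these windows. The windows are chr10:67537619-67537868 (plus strand) for Egr2, chr6:85513590-85513839 (minus strand) for Egr4, chr1:52500449-52500698 (minus strand) for Nab1 and chr10:127666704-127666953 (minus strand) for Nab2.
Egr2: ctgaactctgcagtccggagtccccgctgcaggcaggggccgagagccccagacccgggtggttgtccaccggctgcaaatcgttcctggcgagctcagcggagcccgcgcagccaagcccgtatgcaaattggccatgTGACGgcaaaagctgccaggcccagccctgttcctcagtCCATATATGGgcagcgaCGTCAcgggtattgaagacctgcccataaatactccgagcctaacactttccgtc
Egr4: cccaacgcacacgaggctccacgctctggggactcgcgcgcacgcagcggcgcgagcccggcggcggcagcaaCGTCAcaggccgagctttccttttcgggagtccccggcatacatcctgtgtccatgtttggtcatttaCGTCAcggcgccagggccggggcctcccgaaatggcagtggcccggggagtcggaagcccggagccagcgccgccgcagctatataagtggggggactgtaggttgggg
Nab1: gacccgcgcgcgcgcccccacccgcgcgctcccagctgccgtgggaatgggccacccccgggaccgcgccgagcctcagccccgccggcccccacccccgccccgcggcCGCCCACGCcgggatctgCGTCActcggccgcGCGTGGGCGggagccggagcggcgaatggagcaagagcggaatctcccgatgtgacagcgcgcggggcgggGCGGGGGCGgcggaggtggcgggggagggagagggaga
Nab2: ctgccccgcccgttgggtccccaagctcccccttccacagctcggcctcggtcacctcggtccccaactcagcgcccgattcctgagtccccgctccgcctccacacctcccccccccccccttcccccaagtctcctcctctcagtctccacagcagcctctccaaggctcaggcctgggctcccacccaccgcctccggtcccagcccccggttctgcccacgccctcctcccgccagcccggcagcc
The Egr2 window held 1 CArG box and 2 CREB cores, and the Egr4 window held 2 CREB cores. The Nab1 window held 3 Egr sites and 1 CREB core, and none of the 3 motifs was found in the Nab2 window. RefSeq gives Egr2 5 start sites, and the window shown is one of 3 that overlap each other, each with the same counts. Of the other 2 Egr2 windows, 1 held none of the 3 motifs and 1 held a CArG box with 0 CREB cores. The ETS core CCGGAA was also searched on either strand: it was in none of the 4 windows printed and in 12% of all windows. The Egr2 window that held the CArG box without a CREB core gave 3 matches, of which 2 overlap on opposite strands. Among all 32851 windows of this length, 1.47% held a CArG box, 17.8% a CREB core and 4.7% an Egr site. A match describes letters in a window and not a bound site.

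Per array, 58.6 to 69.4% of probes exceeded background clearly in Cy5, and no spot was saturated. Neuron markers were well above background on all 20 arrays for the 9 of 12 that could be tested, and so were all 10 astrocyte markers, so the cultures labelled as neurons also held astrocyte transcripts. The mean log2 ratio of the neuron markers was 4.27 to 4.99 per AP5 array, 4.87 to 5.27 per NVP array, 4.81 to 5.05 per Ro25 array and 4.67 to 5.00 per control array. That of the astrocyte markers was 2.58 to 4.21 with AP5, 3.12 to 4.08 with NVP, 3.00 to 4.12 with Ro25 and 3.12 to 3.85 in control. None of the 9 neuron and 10 astrocyte markers passed the test between AP5 and control, where 6.08% of all genes passed in either direction. At that share, lists this short would hold few calls. Of 6 tested microglia markers, Csf1r was 0.46 higher with AP5 on the log2 scale (limma, adjusted p = 0.00282) and 5 did not pass, from -0.245 (Cd68) to 0.071 (Aif1), with a list median of -0.06. Of 8 tested endothelial and fibroblast markers, Kdr was 0.73 higher (adjusted p = 0.0249), Col1a2 was 0.25 lower (adjusted p = 0.0499) and 6 did not pass, from -0.123 (Tek) to 0.641 (Dcn). None of 8 oligodendrocyte and Schwann cell markers passed. The Col1a2 call was lost in 18 of 20 fits that left out 1 array and in 8 of 13 other settings, and the Kdr call in 6 of 20 such fits. With slide as a fixed block Csf1r was -0.047 and Kdr -0.338, neither passing. The defining markers P2ry12, Mog, Pmp2 and Cdh5 were well above background on 0 arrays. The part of these markers in the results below was not tested. In RNA from whole cultures, fewer cells of a type and less RNA per cell cannot be told apart.

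After 24 h of AP5 all 6 transcripts were lower than in control cultures. Egr3, Egr1 and Egr4 fell by the most, to between 29.4% and 34.2% of the control level, while Nab1, Nab2 and Egr2 fell to between 61.8% and 69.5% of it. The value of Egr4 rests on a weak reference signal: its log2 difference of -1.55 was -1.87 in the sample channel alone and 0.13 with the scanner's processed signals. Across all genes 3.57% passed the same test in the lower direction (697 of 19519, Benjamini-Hochberg adjusted p under 0.05), and the median log2 difference was -1.12 over the 6 genes against -0.01 over all genes. In the same comparison 5 of the 6 did not overlap between the groups, where 3.88% of all genes lay wholly lower with AP5. The 6 genes were chosen with earlier results of these data known, so their contrast with all genes is a description and not a test. Whether each array stands for its own culture is not given in the labels, so every p-value here measures the spread between these arrays, which may be technical.

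**Figure D1:**
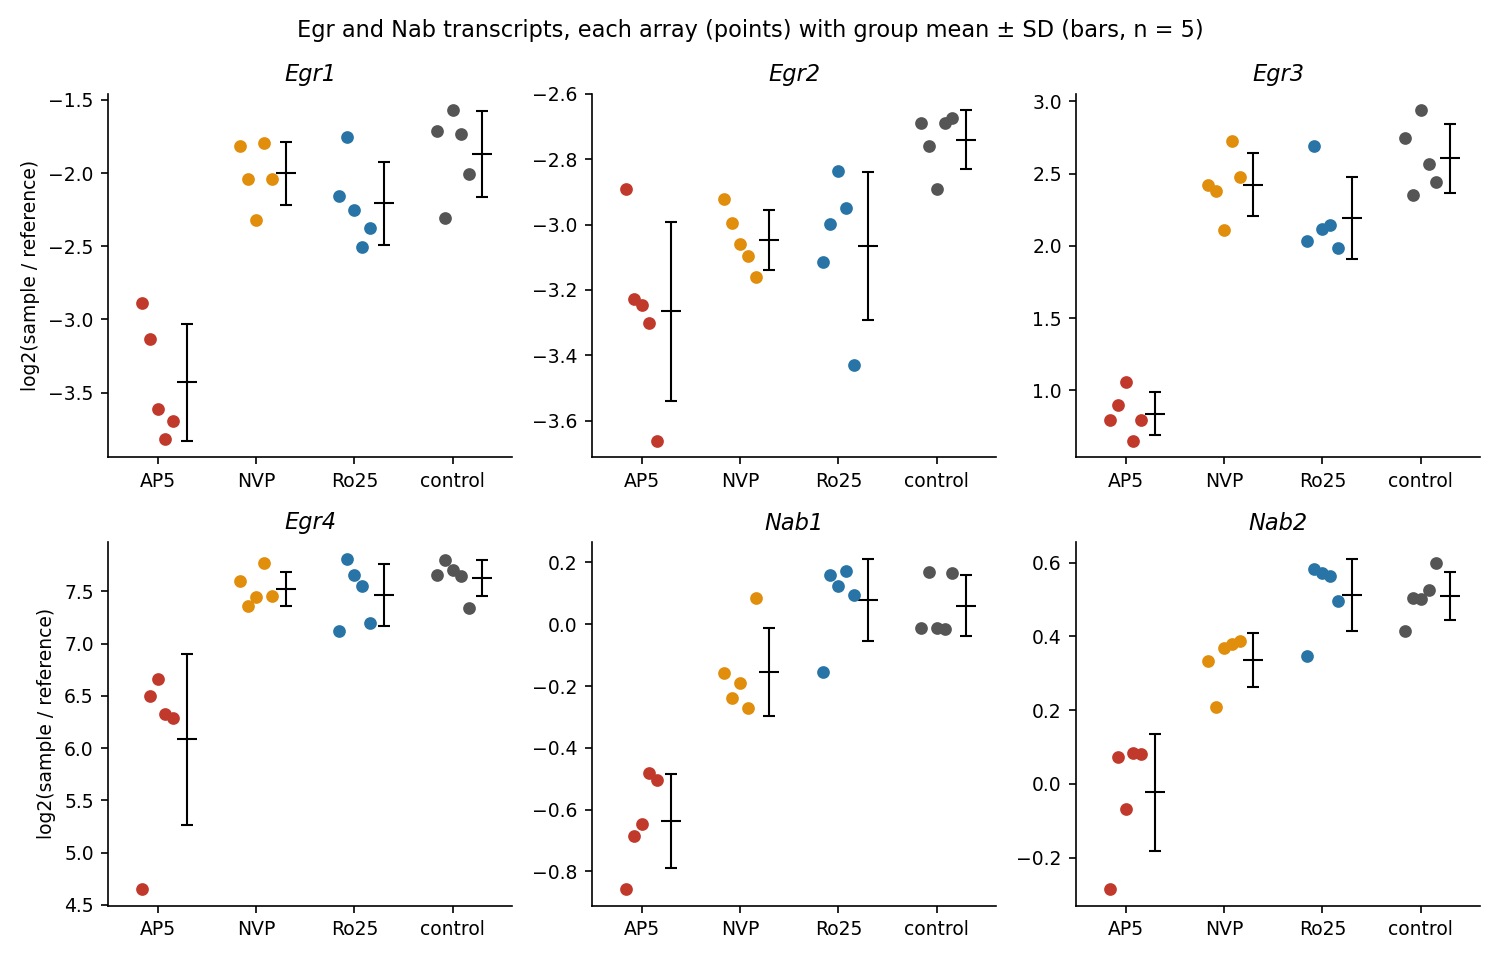
Log2 ratio of sample over reference (vertical axis) for each of the 6 genes in the 4 groups (horizontal axis). Points are single arrays and bars the group mean ± SD (n = 5). The AP5 arrays lie below the control arrays for every gene but Egr2, where AP5 array 1 and control array 3 both stand at -2.89.

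Egr1, also known as Zif268 or Krox-24 and the best studied activity marker of the family, was read by a probe at chr18:35240842-35240901 (plus strand, mouse build mm7 as the array files give it). Its log2 ratio was -2.89, -3.14, -3.61, -3.82 and -3.70 on AP5 arrays 1 to 5, against -1.71, -2.31, -1.57, -1.74 and -2.01 on control arrays 1 to 5. Every control array stood above every AP5 array. The means were -3.43 ± 0.40 with AP5 and -1.87 ± 0.29 in control (SD, n = 5 each), a log2 difference of -1.56 (SE 0.18, 95% interval -1.93 to -1.19) or 2.95-fold lower (limma, adjusted p = 1.05e-05).

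Egr3, an activity-induced factor of cortical and hippocampal neurons, had the largest log2 difference of the 6 genes in the normalized ratio, with little scatter. Egr4 came before it in the sample channel alone (-1.87 for Egr4, -1.73 for Egr3) and with slide as a fixed block (-2.84 for Egr4, -2.53 for Egr3). The log2 ratio was 0.79, 0.90, 1.06, 0.65 and 0.80 on AP5 arrays 1 to 5, against 2.75, 2.35, 2.94, 2.56 and 2.44 on control arrays 1 to 5. The highest AP5 array was well below the lowest control array. The log2 difference was -1.77 (SE 0.14, 95% interval -2.05 to -1.48), 3.40-fold lower with AP5 (limma, adjusted p = 6.18e-08), which placed Egr3 at rank 13 of 19519 genes by p. This reading comes from a bright probe at chr14:64726656-64726715 (plus strand, mm7) that the files tie to a full-length cDNA. A second Egr3 probe, at chr14:64723504-64723563 and tied to the RefSeq transcript, was dim and well above background on only 1 of 5 AP5 arrays, 2 of 5 NVP arrays, 2 of 5 Ro25 arrays and 4 of 5 control arrays. It gave a log2 difference of -0.23 (adjusted p = 0.0719 over all probes), so the call for Egr3 rests on 1 probe.

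Egr4, a neuron-enriched member that lacks the Nab-binding domain, was read at chr6:85540804-85540863 (minus strand, mm7) and gave a strong signal from the cultures and almost none from the reference. Its net Cy5 signal was 7098, 6348, 7746, 5527 and 6748 scanner units on AP5 arrays 1 to 5, against 28960, 20530, 24050, 27110 and 26200 on control arrays 1 to 5. The groups were far apart, with no AP5 array above 7750 and no control array below 20500. The log2 ratios were 4.65, 6.49, 6.67, 6.32 and 6.29 with AP5 and 7.65, 7.80, 7.70, 7.65 and 7.34 in control, a difference of -1.55 (SE 0.26, 95% interval -2.09 to -1.004) or 2.92-fold lower (limma, adjusted p = 0.000779). The Cy3 signal of the Egr4 spot, which comes from the same reference RNA on every array, was not constant. It was 8.94 to 15.05 units with AP5, 30.9 to 39.0 with NVP, 29.4 to 47.8 with Ro25 and 21.6 to 44.7 in control, and it was well above background on 2 of 5 AP5 arrays and on all 15 others. The Cy3 signal thus moved the same way as Cy5 at this spot, and the reason was not tested. In the sample channel alone the difference was -1.87 (adjusted p = 1.54e-09), while the scanner's own processed ratio, which divides by that small reference signal, gave 0.13 with no call (adjusted p = 0.874).

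**Figure D2:**
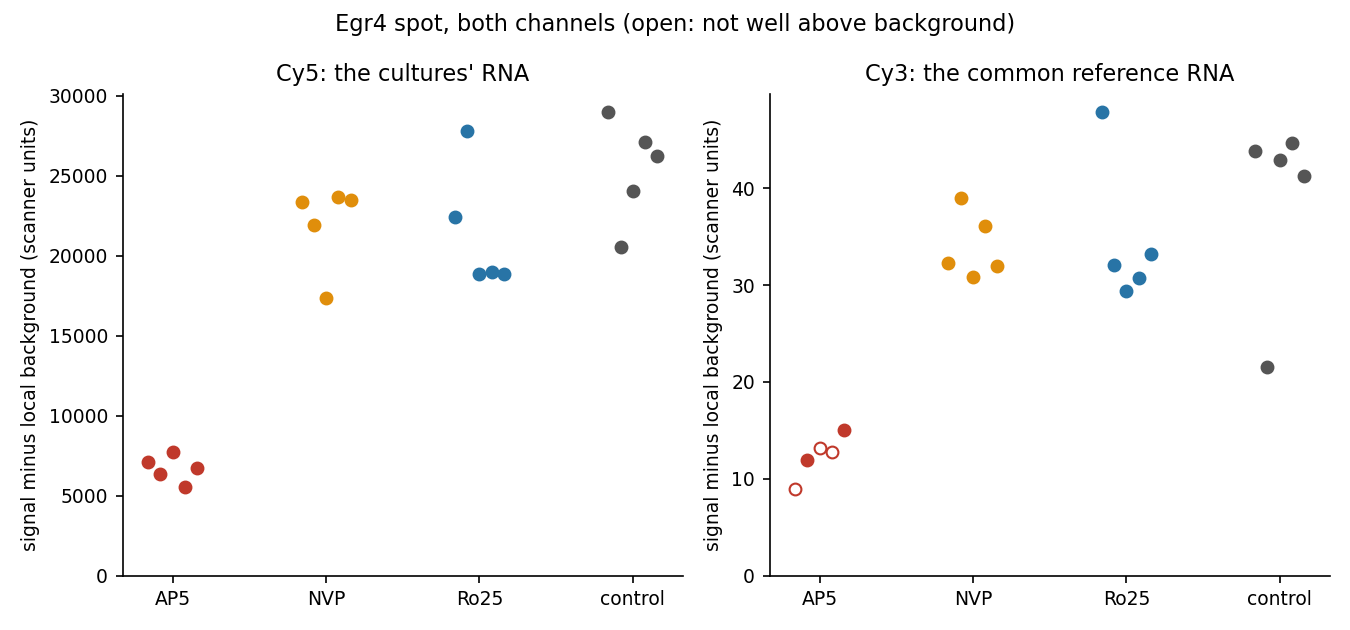
Background-subtracted signal of the Egr4 spot in the sample channel (left) and in the reference channel (right), in scanner units, for each array of the 4 groups. Open points were not well above background, which was the case for 3 of 5 AP5 arrays in the reference channel, and AP5 is the lowest group in both channels.

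Egr2, also known as Krox20 and best known for hindbrain segments and Schwann cell myelination, was dim in the sample channel. Its probe, at chr10:67145376-67145435 (plus strand, mm7), was spotted 10 times per array, and the SD between these spots was 0.06 to 0.24. The mean log2 ratio of the spots was -2.89, -3.23, -3.24, -3.30 and -3.66 on AP5 arrays 1 to 5, against -2.69, -2.76, -2.89, -2.69 and -2.67 on control arrays 1 to 5. AP5 array 1 and control array 3 met at -2.89, and the other 4 AP5 arrays lay below every control array. The difference was -0.53 (SE 0.11, 95% interval -0.77 to -0.29), 1.44-fold lower with AP5 (limma, adjusted p = 0.00746). The net Cy5 signal averaged 104 ± 21.1 units with AP5 and 191 ± 37.5 in control (SD, n = 5 each), where the added offset was 50. The size of the difference varied with the processing. It was -0.697 with normexp without offset, -0.615 with no background correction, -0.91 with the scanner's processed ratio and -0.456 with median centring, the last without passing.

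The corepressors fell less than Egr1, Egr3 and Egr4 in fold but with narrow spread. Nab1 had log2 ratios of -0.86, -0.69, -0.65, -0.48 and -0.50 on AP5 arrays 1 to 5, against -0.01, 0.17, -0.01, -0.01 and 0.17 on control arrays 1 to 5. The groups did not overlap, and the difference was -0.70 (SE 0.09, 95% interval -0.87 to -0.52), 1.62-fold lower with AP5 (limma, adjusted p = 2.78e-05). Its probe lies at chr1:52690919-52690978 (minus strand, mm7). A second Nab1 probe, at chr1:52691878-52691937, gave -0.54 (adjusted p = 2.95e-05 over all probes) with means of -1.15 ± 0.07 with AP5 and -0.61 ± 0.11 in control (SD, n = 5 each).

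Nab2, read at chr10:127162313-127162372 (minus strand, mm7), had log2 ratios of -0.29, 0.07, -0.07, 0.08 and 0.08 on AP5 arrays 1 to 5, against 0.42, 0.50, 0.50, 0.53 and 0.60 on control arrays 1 to 5. These groups did not overlap either. The difference was -0.53 (SE 0.07, 95% interval -0.68 to -0.38), 1.45-fold lower with AP5 (limma, adjusted p = 8.2e-05).

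AP5 and control arrays shared no slide, so the AP5 results cannot be read within a slide. With slide as a fixed block the contrast runs through NVP and Ro25 arrays and rests on 1 control array. Then 2 of the 6 genes passed, Egr3 at -2.53 (adjusted p = 0.00409) and Egr4 at -2.84 (adjusted p = 0.0205), in a fit where 0.21% of all genes passed and the median SE was 0.226 in place of 0.0963. Egr1 was -1.99 (adjusted p = 0.0561), Nab2 -0.73 (adjusted p = 0.114), Nab1 -0.73 (adjusted p = 0.185) and Egr2 -0.55 (adjusted p = 0.321) in that fit. With slide as a random block, where the estimated correlation of arrays on 1 slide was -0.04, all 6 passed. With median centring in place of loess, Egr1, Egr3 and Egr4 passed, while Egr2 (-0.456), Nab1 (-0.58) and Nab2 (-0.449) kept their direction without passing. On the first scan day alone (3 AP5 and 5 control arrays) the differences were -1.68 for Egr1, -0.66 for Egr2, -1.82 for Egr3, -1.26 for Egr4, -0.62 for Nab1 and -0.43 for Nab2.

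**Figure D3:**
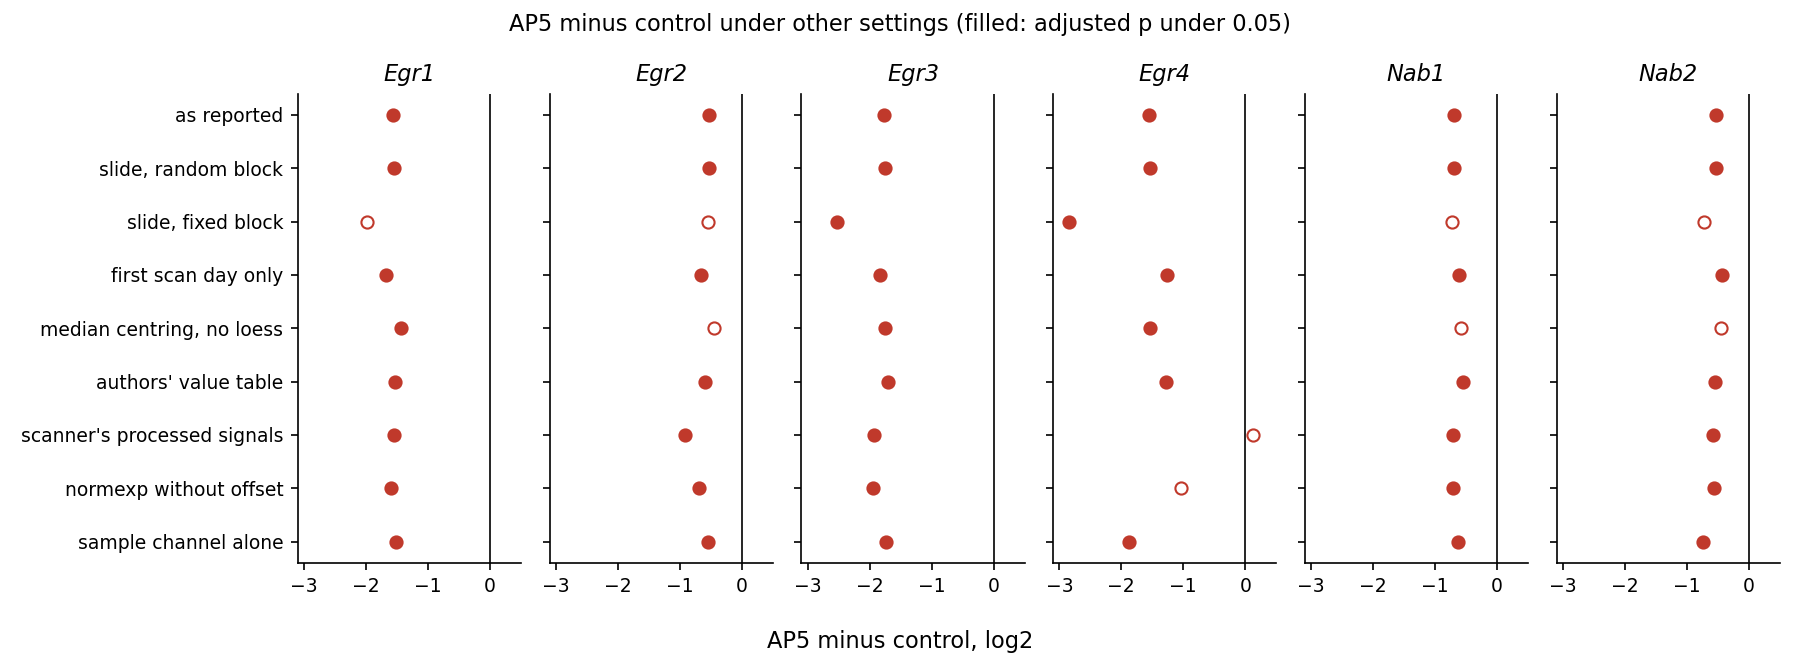
Difference of AP5 minus control on the log2 scale (horizontal axis) for each gene under 9 settings (rows). Filled points passed an adjusted p of 0.05. Egr3 is filled in every row, and Egr4 with the scanner's processed signals is the 1 point right of 0.

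NVP at 100 nM left no member past the threshold against control, and 0 of 19519 genes passed (0%), with 1148 genes (5.88%) at an unadjusted p under 0.05 by the same limma test. Of the 6 genes, 3 were under that unadjusted p: Egr2, Nab1 and Nab2. Egr1 was -1.82, -2.04, -2.32, -1.79 and -2.04 on NVP arrays 1 to 5, which overlapped the control arrays. The difference from control was -0.13 (95% interval -0.51 to 0.24, adjusted p = 0.999). Egr3 was 2.43, 2.38, 2.11, 2.73 and 2.48 on NVP arrays 1 to 5 and differed from control by -0.18 (95% interval -0.47 to 0.10, adjusted p = 0.986). Egr4 was 7.60, 7.36, 7.45, 7.77 and 7.45 and differed by -0.10 (95% interval -0.65 to 0.44, adjusted p = 0.999). The NVP and control arrays overlapped for Egr3 and Egr4 too.

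For Egr2 and Nab2 the NVP arrays lay wholly below the control arrays without passing the test, which was so for 1.22% of all genes. Egr2 was -2.92, -2.99, -3.06, -3.09 and -3.16 on NVP arrays 1 to 5, and its difference from control was -0.31 (95% interval -0.55 to -0.07, adjusted p = 0.725). Nab2 was 0.33, 0.21, 0.37, 0.38 and 0.39 on NVP arrays 1 to 5, with a difference of -0.17 (95% interval -0.32 to -0.02, adjusted p = 0.772). Nab1 differed by -0.21 (adjusted p = 0.740) through its bright probe and by 0.17 (adjusted p = 0.662 over all probes) through the other, so no direction is given for it. No slide held both NVP and control arrays.

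Ro25 at 1 µM also left no member past the threshold, and 3 genes passed of 19519 (0.0154%), with 4.33% at an unadjusted p under 0.05. Of the 6 genes, 2 were under that unadjusted p: Egr2 and Egr3. Egr3 had the lowest p of the 6, with log2 ratios of 2.04, 2.69, 2.12, 2.14 and 1.99 on Ro25 arrays 1 to 5, against the control values given above. All Ro25 arrays but array 2 were below every control array. The difference was -0.41 (95% interval -0.70 to -0.13, unadjusted p = 0.00663, adjusted p = 0.824 by limma), and within slide 4, the 1 slide that held both groups, 3 Ro25 arrays averaged 0.89 below the 1 control array. Egr1 was -2.16, -1.75, -2.25, -2.50 and -2.38 on Ro25 arrays 1 to 5, a difference of -0.34 (95% interval -0.71 to 0.03, adjusted p = 1), and -0.78 within slide 4. Egr2 was -3.11, -2.999, -2.84, -2.95 and -3.43, a difference of -0.33 (95% interval -0.57 to -0.09, adjusted p = 0.856) and -0.27 within slide 4. The control array of slide 4, array 3, was the highest control array for Egr1 and Egr3 and the lowest for Egr2.

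Egr4 was 7.12, 7.82, 7.66, 7.55 and 7.20 on Ro25 arrays 1 to 5 and differed by -0.16 (95% interval -0.70 to 0.38, adjusted p = 1), and by -0.415 within slide 4. Nab1 was -0.15, 0.16, 0.12, 0.17 and 0.10, a difference of 0.02 (95% interval -0.16 to 0.20), and Nab2 was 0.35, 0.58, 0.57, 0.56 and 0.50, a difference of 0.00 (95% interval -0.15 to 0.15), both with adjusted p = 1. Within slide 4 these were 0.048 for Nab1 and -0.032 for Nab2. The Ro25 and control arrays overlapped for all 6 genes.

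**Figure D4:**
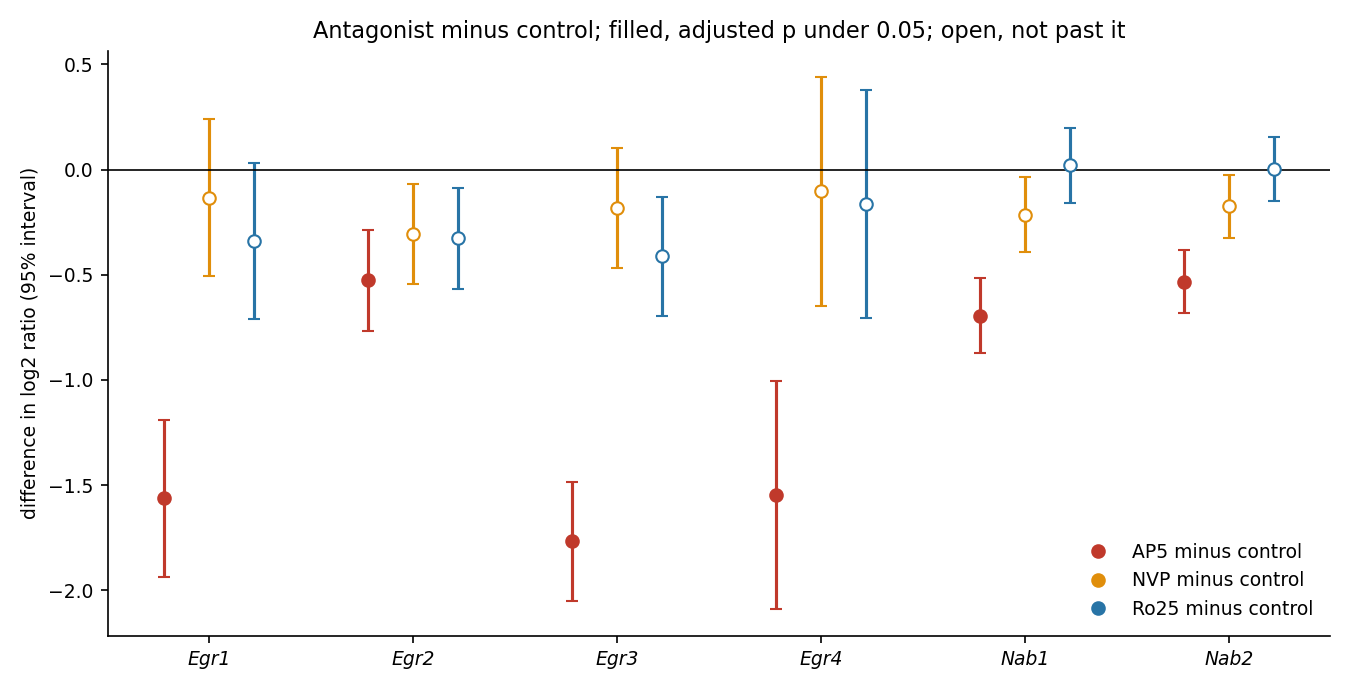
Difference from control on the log2 scale with its 95% interval (vertical axis) for each gene, with AP5, NVP and Ro25 side by side. Filled points passed an adjusted p of 0.05: all 6 with AP5 and none with NVP or Ro25, whose points lie between -0.41 and 0.02.

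The antagonists were also set against each other, 3 pairs in addition to the 3 comparisons with control, each adjusted over all genes. Their doses differ (100 µM, 100 nM and 1 µM), so the pairs compare these treatments and not the compounds at a matched dose, and they share arrays with the comparisons above. AP5 was lower than NVP for 5 of 6 genes, where 3.04% of all genes passed in that direction. The log2 differences were -1.43 for Egr1 (adjusted p = 4.27e-05), -1.58 for Egr3 (adjusted p = 5.6e-07), -1.44 for Egr4 (adjusted p = 0.00168), -0.48 for Nab1 (adjusted p = 0.00149) and -0.36 for Nab2 (adjusted p = 0.00423). Egr2 was the exception, at -0.22 (95% interval -0.46 to 0.02, adjusted p = 0.336). Slide 2 held 1 AP5 and 3 NVP arrays and gave differences of -1.65 for Egr1, -0.61 for Egr2, -1.61 for Egr3, -1.24 for Egr4, -0.27 for Nab1 and -0.24 for Nab2.

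AP5 was also lower than Ro25 for 5 of 6 genes, where 1.95% of all genes passed in that direction. The log2 differences were -1.22 for Egr1 (adjusted p = 0.000268), -1.36 for Egr3 (adjusted p = 3.87e-06), -1.38 for Egr4 (adjusted p = 0.00326), -0.71 for Nab1 (adjusted p = 2.71e-05) and -0.54 for Nab2 (adjusted p = 0.000111). Egr2 differed by -0.20 (95% interval -0.44 to 0.04, adjusted p = 0.528), and on slide 6, with 1 array of each, AP5 was 0.11 higher for Egr2. NVP and Ro25 differed past the threshold for 0 of the 6 genes and for 0 of 19519 genes (0%; 1145 genes, 5.87%, at an unadjusted p under 0.05). Of the 6 genes, 2 were under that unadjusted p: Nab1 and Nab2. The NVP minus Ro25 differences ran from -0.23 for Nab1 (95% interval -0.41 to -0.06) to 0.23 for Egr3 (95% interval -0.05 to 0.51).

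In order of level, AP5 was lowest for all 6 genes. Above AP5, Egr1, Egr3 and Egr4 ran Ro25, NVP and control, and Egr2 did the same. Nab2 ran NVP, control and Ro25. Nab1 did the same through its bright probe, while through its other probe the order above AP5 was control (-0.61), Ro25 (-0.56) and NVP (-0.44). None of the neighbours above AP5 differed past the threshold in any of these orders, and for Egr2 the step from AP5 to its neighbour did not either.

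Genes whose profile over the 20 arrays was most like a member's were ranked by the root mean square difference of centred log2 ratios, among 19482 genes. The gene nearest to Egr1 was Egr3 and the gene nearest to Egr3 was Egr1, at 0.222, where the median gene lay at 0.698 from Egr1 and 0.739 from Egr3. Next to Egr1 came Galntl2, Tnfaip3, a feedback inhibitor of NF-kappaB signalling, Npas4, a neuronal activity factor, and Ifi205. Next to Egr3 came Ifi205, Relb, an NF-kappaB subunit, Bdnf, the activity-dependent neurotrophin, and Galntl2. The AP5 minus control differences of these genes ran from -1.83 (Ifi205) to -1.20 (Tnfaip3) on the log2 scale, with Npas4 at -1.53 and Bdnf at -1.61.

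The gene nearest to Nab1 was Nab2, at 0.106 (median gene 0.344), followed by Inhbb, Bves, Nfkbie and Ppp1cc. Around Nab2 stood Cyb561d1, Hprt1, Plekho1, Inhbb and Zfp46, at 0.094 to 0.099 (median gene 0.280). Inhbb, which encodes an activin and inhibin subunit, was near both. Egr4 was nearest to AI836003, Pcsk1, a prohormone convertase, Col22a1, Rhbdl3 and 2310046A06Rik, and AP5 array 1 was the lowest AP5 array for Egr4, Nab1 and Nab2 and for all 5 genes nearest to each of them. For the 5 genes nearest to Egr4, AP5 array 1 lay 0.54 to 1.13 below the next AP5 array. With normexp without offset AI836003, Pcsk1 and 2310046A06Rik did not pass between AP5 and control, while Col22a1 and Rhbdl3 did. Egr2 was nearest to Inpp5d and Fcgr3, both genes of immune cells such as microglia, and to Pole and Wdhd1, genes of DNA replication, at 0.128 to 0.157 (median gene 0.299). The root mean square of the centred Egr2 values themselves was 0.253. Between AP5 and control Wdhd1 did not pass (limma, adjusted p = 0.0806). With 1 array left out, the call was lost in 15 of 20 fits for Fcgr3, 7 of 20 for Pole and 0 of 20 for Inpp5d. Nearness was computed with the AP5 arrays included, so the AP5 differences of these genes are a description.

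The pathway around the family was read from 4 lists. Of 14 tested genes upstream of Egr transcription, 1 passed between AP5 and control, where 6.08% of all genes passed in either direction and 2.51% in the higher one. Rps6ka5, which encodes the MSK1 kinase that phosphorylates CREB and histone H3, was 0.77, 0.44, 1.13, 0.86 and 0.62 on AP5 arrays 1 to 5, against -0.20, -0.16, 0.12, -0.37 and -0.19 on control arrays 1 to 5. It was higher with AP5, without overlap, by 0.92 (SE 0.13, 1.89-fold, limma adjusted p = 8.65e-05). The other 13, among them Srf and Creb1, did not pass, and the lowest was Crem at -0.32.

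Among 22 tested genes reported as Egr targets, 2 were lower with AP5, 0 were higher and 20 did not pass, where 3.57% of all genes were lower. The median log2 difference was -0.01 over the list and -0.01 over all genes. Arc, a synaptic immediate early gene that Egr1 and Egr3 are reported to switch on, was 0.21, 0.95, 0.10, 0.15 and 0.36 on AP5 arrays 1 to 5, against 2.92, 3.05, 3.04, 2.97 and 3.02 on control arrays 1 to 5. That was 6.26-fold lower with AP5, with a wide gap between the groups (log2 difference -2.65, SE 0.12, limma adjusted p = 2.76e-11). Pdgfb, a platelet-derived growth factor chain, was 1.57-fold lower (log2 difference -0.65, SE 0.09, adjusted p = 8.2e-05). Pdgfa, the other chain, was lower with AP5 than with NVP by 0.30 (adjusted p = 0.0330) and by 0.24 than in control without passing (adjusted p = 0.0877). The 20 genes that did not pass between AP5 and control lay between -0.28 (Ache) and 0.32 (Icam1).

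None of the 12 NuRD subunits, the complex that Nab proteins recruit, passed, and the lowest adjusted p was 0.116 for Chd3 (log2 difference 0.46). Of 14 related zinc finger genes that bind GC boxes, Klf10 was lower with AP5 by 0.62 (adjusted p = 0.00331) and Klf13 by 0.69 (adjusted p = 0.0185), and 12 did not pass, against the same 3.57% of all genes. With median centring neither passed (Klf10 adjusted p = 0.761, Klf13 adjusted p = 0.598), nor did Klf13 on the first scan day (adjusted p = 0.0882). Without control array 3 the Klf13 difference was -0.58 (adjusted p = 0.0549). With slide as a fixed block the differences were 0.26 for Rps6ka5 (adjusted p = 0.595), -1.01 for Pdgfb (adjusted p = 0.0665), -1.19 for Klf10 (adjusted p = 0.0660) and -1.70 for Klf13 (adjusted p = 0.112). Against control, no gene of these 4 lists passed with NVP or with Ro25.

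**Figure D5:**
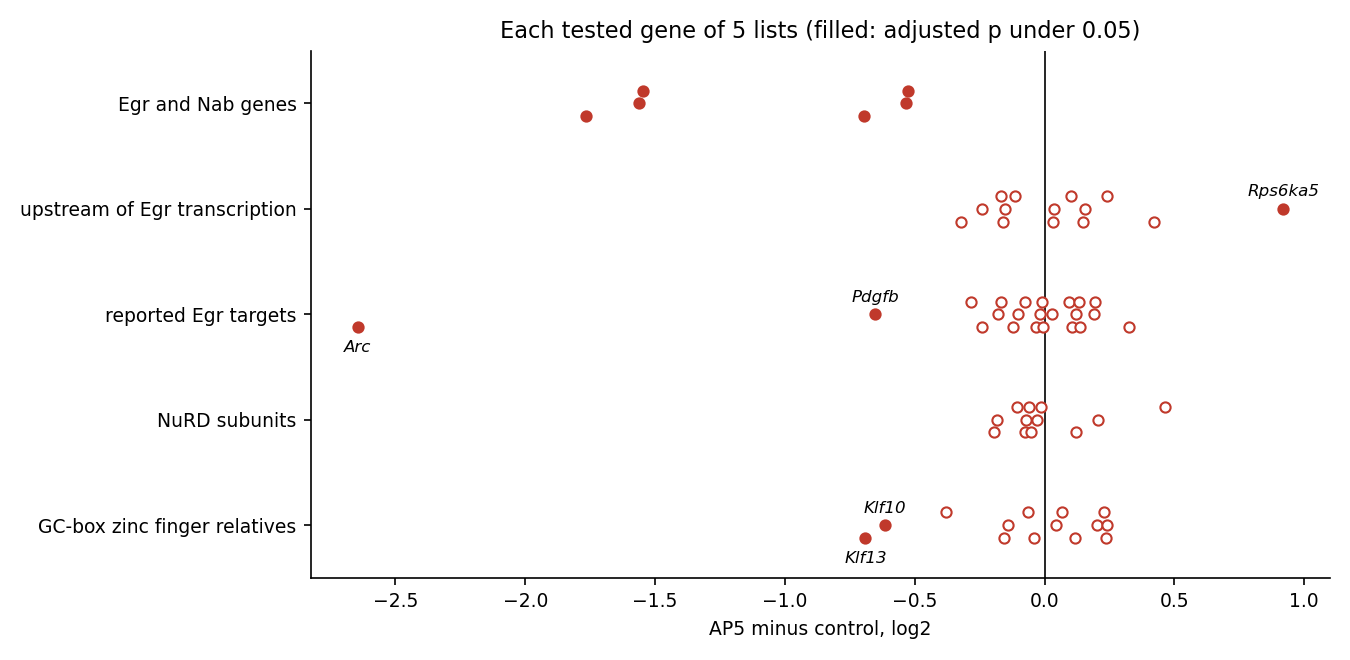
Difference of AP5 minus control on the log2 scale (horizontal axis) for each tested gene of 5 lists (rows; vertical scatter within a row only separates points). Filled points passed an adjusted p of 0.05: 6 of 6 Egr and Nab genes, 1 of 14 upstream genes (higher), 2 of 22 reported targets, 0 of 12 NuRD subunits and 2 of 14 relatives.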

How the data were processed

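For each of 20 Agilent arrays read in both colours, the deposited scanner file gives an intensity per spot on a linear scale. Control spots were dropped, which left 43379 of 45018. Feature Extraction made these files, in version 10.7.3.1 by their headers and 11.0 in the submitters' processing notes. The deposited files also hold the scanner's log10 ratio of Cy5 over Cy3 with its processed signals, used as an alternative. The sample was in Cy5 and the reference in Cy3 on every array per the labels, with no dye swap. The authors' value table holds 20674 probes as log2 ratios. Over 11125 probes its columns were set against the scanner's log ratios, turned to log2. The slope was between 0.834 and 0.857 and the correlation between 0.987 and 0.991. The column medians of the value table were 0.0302 to 0.0626, and how the table was normalized is not stated in the labels or headers.

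From the intensities, background was corrected with normexp (offset 50) and arrays were normalized by loess with limma 3.58.1 in R 4.3.3 with the data.table package (1.17.8). Outlier spots (0.282%) were left out and spots of one probe averaged. Probes well above background in Cy5 on at least 5 arrays were kept (28507), and each gene was read from its brightest probe, named as in the files (13033 genes with 1 probe, 6486 with 2 or more). One limma model with a mean per group was fitted to all 20 arrays (residual df 16), and 6 comparisons were tested two-sided at 0.05 after adjustment by Benjamini and Hochberg over 19519 genes. The number of arrays limits the precision. Groups and replicate numbers came from the sample titles. The 7 slides and 3 scan days were read from the headers, and 17 arrays were scanned on the first day. The test was checked on simulated data with independent noise on each array. That simulation held no slide, scan day or replicate effect, so it does not bear on those.

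The members and lists were chosen with earlier results of these data known. Other genes were named by rule: up to 4 per list past the threshold by adjusted p, up to 2 of lowest adjusted p where none passed, and the 5 nearest genes of each member. Some genes are not reported here. Promoters came from RefSeq (GRCm38.p6). The settings tried were slide as a fixed or random block, the first scan day, the replicate number as a block, the value table, the scanner's processed signals, median centring, Aquantile scaling, no background correction, normexp without offset, no filter and a filter at 15 arrays on dim probes, every probe on its own, the sample channel alone (added after the data were seen), and each array left out.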

Additional observations from a re-analysis of the deposited data

Results flagged for a closer look

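In 3 of the 24 sets of 5 arrays, 1 array stood apart from the other 4 by Dixon's test at the 95% level, which chance gives in about 1 of 20 sets. Egr4 on AP5 array 1 was 4.65, where the other AP5 arrays were 6.29 to 6.67. The reference channel was at 8.94 units on that array and not well above background, and the sample channel, at 7098 units, lay inside the range of the other AP5 arrays. Egr3 on Ro25 array 2 was 2.69, where the other Ro25 arrays were 1.99 to 2.14. Nab1 on Ro25 array 1 was -0.15, where the others were 0.10 to 0.17. AP5 array 1 and Ro25 array 2 lay on the same slide and were the 2 arrays of the second scan day. Whether slide or scan day had a part was not tested.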

How the results depend on the processing

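Each array was left out in turn. All 6 genes then passed between AP5 and control in every case, with log2 differences of -1.70 to -1.47 for Egr1, -0.62 to -0.43 for Egr2, -1.83 to -1.68 for Egr3, -1.69 to -1.19 for Egr4, -0.73 to -0.64 for Nab1 and -0.56 to -0.47 for Nab2. The share of all genes past the threshold for Ro25 minus control was 0 to 0.0256% (0.0154% with all arrays). It was 0.0102% with the replicate number as a block and 0 with the fixed slide block, the first scan day, the scanner's processed signals, median centring, no background correction, normexp without offset, no filter on dim probes, the sample channel alone, and every probe on its own. Values near 0 changed sign when arrays were left out: -0.003 to 0.078 for Nab1 and -0.020 to 0.044 for Nab2 (Ro25 minus control), and -0.072 to 0.077 for Egr2 and -0.029 to 0.145 for Egr4 (NVP minus Ro25). The same held for Nab2 in Ro25 minus control with the fixed slide block (-0.032), the first scan day (-0.014), the value table (-0.007) and the sample channel alone (-0.132). It held for Egr2 in NVP minus Ro25 with the sample channel alone (-0.001), for Egr4 in NVP minus control with normexp without offset (0.018), and for Egr4 in NVP minus Ro25 with the fixed slide block (-0.688, adjusted p = 0.952).

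The fixed slide block left 2 genes past the threshold between AP5 and control, with Egr1 at -1.992, Egr2 at -0.548, Nab1 at -0.726 and Nab2 at -0.727 not passing, and 0.21% of all genes passing, in place of 6.08%. Csf1r was then -0.047 and Kdr -0.338, both turned in sign. Between AP5 and NVP it left 3 genes of the family and 0.548% of all genes, with Nab1 at -0.433 and Nab2 at -0.352 not passing, and between AP5 and Ro25 it left 1.06% of all genes. Few slides join the groups in this fit. For AP5 minus control its median SE was 0.226 in place of 0.0963. The estimates moved too, from -1.767 to -2.527 for Egr3 and from -1.547 to -2.839 for Egr4. Why they moved was not tested. Median centring left 3, 2 and 2 genes of the family and 0.85%, 0.62% and 0.425% of all genes (AP5 minus control, minus NVP and minus Ro25). Between AP5 and control, Egr2 was -0.456, Nab1 -0.58 and Nab2 -0.449 and did not pass. Between AP5 and NVP, Egr1 was -1.249, Nab1 -0.331 and Nab2 -0.245, and between AP5 and Ro25, Egr1 was -1.117, Nab1 -0.630 and Nab2 -0.453, again not passing. The cause was not tested.

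The scanner's processed signals turned Egr4 to 0.13, 0.245 and 0.248 in the same 3 comparisons, and normexp without offset gave it -1.033, -1.051 and -1.015 with no call; the reference signal at this spot was near background. The processed signals also put Egr2 past the threshold between AP5 and NVP (-0.503). The dim Egr3 probe gave -0.228, -0.203 and -0.130 with no call. Through its other probe Nab1 was 0.167 in NVP minus control and 0.121 in NVP minus Ro25, and in the value table it was 0.189 and 0.167. Each gene was read there from the brightest probe that the value table holds. For AP5 minus control the value table gave Nab1 -0.555, near its other probe (-0.54) and not its bright probe (-0.695). These may therefore be the same probe and not separate readings. The sample channel alone put 10.3% of all genes past the threshold between AP5 and control, and the first scan day 3.25% between AP5 and NVP and 1.52% between AP5 and Ro25. No filter on dim probes gave 3.82%, 3.66% and 1.97% (AP5 minus control, minus NVP and minus Ro25). With the replicate number as a block all 6 genes passed between AP5 and control (6.34% of all genes). The numbers were not taken to pair arrays. Of 30 same-number correlations of deviations 11 were above 0.1 (-0.445 to 0.763), and in 18 of 60 cases an array was most like its own number. Arrays numbered 5 did deviate alike in every pair of groups, with correlations of 0.568 to 0.763, and the reason was not tested.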
